A study of Mus musculus with 8 samples.

Results

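The visceral endoderm is the epithelium that wraps the early mouse embryo and makes serum proteins before a liver exists. The 10 genes described here are 8 that encode its secreted proteins (Afp, Ttr, Apoa1, Apoa4, Apob, Apom, Rbp4 and Trf) and 2 organizer genes of its distal and anterior part (Cer1 and Hhex). They were chosen by symbol, and all 10 were found among the 21812 symbols of the deposited table. RNA-seq had been done on mouse embryonic stem cells (mESC) grown in PrE-induce medium, where PrE stands for primitive endoderm, the lineage from which visceral endoderm arises. The 8 libraries form 4 groups of 2: Mettl3 cKO, Mettl3 WT, Virma cKO and Virma WT, where cKO is the labels' name for the knockout and WT for its control. METTL3 catalyses N6-methyladenosine (m6A) formation on mRNA, and VIRMA is a scaffold of the same writer complex. All 4 groups share the medium and the description as mESC. The labels do not say how the alleles were deleted or whether a line is 1 clone.

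In the mouse, primitive endoderm becomes visceral endoderm under the transcription factors GATA4, GATA6, SOX17 and HNF4A. The mature layer takes up maternal proteins and secretes carriers of lipid, retinol and iron. At its distal tip, and later on the anterior side, cells that express Hhex and Cer1 restrain Nodal and Wnt signals in the neighbouring epiblast.

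Values are given in scaled counts: the deposited table holds read counts multiplied by 1 factor per library and rounded. One read was worth 0.9469 and 1.0389 scaled counts in the Mettl3 cKO libraries and 2.5488 and 2.7593 in Mettl3 WT. In the Virma cKO libraries it was worth 0.6803 and 0.6986, and in Virma WT 0.6759 and 0.689. The estimated depth was 15995439 to 17618989 reads in Mettl3 cKO, 6199867 to 6702218 in Mettl3 WT, 22284192 to 22976691 in Virma cKO and 25014741 to 25606231 in Virma WT, so a low gene was measured least precisely in Mettl3 WT. Nothing in the labels says that replicates came from separate cultures, and the p-values below therefore reflect library-to-library spread, possibly only technical. Mettl3 itself had 588 and 560 scaled counts in the libraries labelled Mettl3 cKO, against 596 and 588 in Mettl3 WT (log2 fold change -0.04, adjusted p = 0.691, limma), so its summed count does not check those labels. Virma had 1173 and 1214 scaled counts in Virma cKO, against 1564 and 1488 in Virma WT (log2 fold change -0.35, adjusted p = 1.87e-12, limma). In the same comparison Mettl3 changed by -0.43 (adjusted p = 2.04e-11, limma), so a fall of that size was not particular to Virma and is a weak check of the labels.

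Promoter sequence is shown for 4 members, since visceral endoderm genes are known targets of GATA and forkhead (FOX) factors. Hhex and Apom were lower in Virma cKO than in Virma WT, whereas Apob and Apoa1 were not called in that comparison. Each window runs from 250 bases before to 50 after a start in RefSeq, build GRCm38.p6, and lies at chr19:37434591-37434890 on the plus strand for Hhex, chr17:35131752-35132051 on the minus strand for Apom, chr12:7977427-7977726 on the plus strand for Apob and chr9:46228380-46228679 on the plus strand for Apoa1. Capitals mark GATA letters (AGATAA and the variant AGATAG, with TGATAA and the variant TGATAG) and FOX letters (TGTTTAC and the variant TATTTAC, with TGTTTGC and the variant TATTTGC), searched on both strands, and no match overlaps another; each sequence is written 5′ to 3′ on the strand of its gene.
Hhex: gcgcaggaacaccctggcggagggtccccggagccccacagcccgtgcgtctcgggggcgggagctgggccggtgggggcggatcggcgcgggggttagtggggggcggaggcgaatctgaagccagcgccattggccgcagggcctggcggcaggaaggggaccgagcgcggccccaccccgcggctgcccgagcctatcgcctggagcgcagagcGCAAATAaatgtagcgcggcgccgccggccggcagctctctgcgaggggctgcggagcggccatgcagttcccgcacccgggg
Apom: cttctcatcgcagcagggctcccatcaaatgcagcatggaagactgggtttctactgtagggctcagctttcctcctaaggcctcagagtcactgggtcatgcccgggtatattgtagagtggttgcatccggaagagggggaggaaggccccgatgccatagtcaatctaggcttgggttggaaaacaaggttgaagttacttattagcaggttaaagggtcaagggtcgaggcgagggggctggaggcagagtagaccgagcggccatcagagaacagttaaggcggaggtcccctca
Apob: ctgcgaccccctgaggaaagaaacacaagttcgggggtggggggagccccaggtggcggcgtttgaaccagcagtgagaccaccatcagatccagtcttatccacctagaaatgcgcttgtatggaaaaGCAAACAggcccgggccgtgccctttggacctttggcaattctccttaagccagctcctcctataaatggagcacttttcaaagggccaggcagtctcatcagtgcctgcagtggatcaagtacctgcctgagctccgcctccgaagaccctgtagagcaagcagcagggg
Apoa1: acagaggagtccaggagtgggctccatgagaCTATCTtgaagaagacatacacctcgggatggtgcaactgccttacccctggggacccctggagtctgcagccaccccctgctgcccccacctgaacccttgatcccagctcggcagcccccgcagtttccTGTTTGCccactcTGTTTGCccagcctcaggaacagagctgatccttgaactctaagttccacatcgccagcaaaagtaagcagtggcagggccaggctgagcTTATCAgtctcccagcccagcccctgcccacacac
Apoa1 held 2 GATA and 2 FOX matches, the FOX matches at positions -88 and -75 relative to the start. Apob held 1 FOX match at position -121, and Hhex 1 at position -33. Apom held none of these letters. Of all 32851 promoters of the same length, 29.8% held GATA letters and 13.5% FOX letters. The Hhex window stood apart in composition, with 75.7% G or C and 37 CpG dinucleotides, against a median of 52.7% and 7 over all promoters. Among the other members with a promoter at hand, Afp held 1 FOX match, Cer1 held 2 FOX matches, the first of the Rbp4 starts held 1 FOX match, and Apoa4 and the second Rbp4 start held none. No promoter of Trf or Ttr is shown.

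Most of the secreted-protein RNA came from 1 gene. Trf, which encodes transferrin, the iron carrier of serum, made up 67.9 to 77.1% of the summed scaled counts of the 8 secreted-protein genes in every library. Per kb of the longest coding transcript, used here to compare genes, Hhex averaged 256.4 ± 2.35 scaled counts in Mettl3 cKO, 205.3 ± 15.7 in Mettl3 WT, 141.8 ± 4.32 in Virma cKO and 220.0 ± 14.5 in Virma WT (SD, n = 2 each). Trf averaged 190.4 ± 4.68 scaled counts per kb in Mettl3 cKO, 198.6 ± 18.4 in Mettl3 WT, 109.9 ± 0.825 in Virma cKO and 139.4 ± 10.7 in Virma WT. By this length Hhex and Trf were the highest members in all 4 groups, and in Mettl3 WT their means lay within each other's spread. The order rests on the length used. Hhex has 1802 bases in that transcript and 5056 over all its exons, Trf 2571 and 3320, and Apom 1013 by both. Per kb of all exons, Hhex would lie below Trf in all 4 groups and below the Apom mean in both Mettl3 groups.

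Below them, by the same transcript length, the order differed in Virma cKO. Apom came next in Mettl3 cKO at 99.2 ± 0.698, in Mettl3 WT at 100.2 ± 42.6 and in Virma WT at 26.7 ± 5.58 scaled counts per kb. In Virma cKO, Rbp4 at 19.8 ± 1.22 stood above Apom at 11.8 ± 2.79. Apoa1 and Apob were lower still, and the 3 genes with the least RNA over the 4 groups were Apoa4, Afp and Cer1. In Virma cKO, Apom and Apoa1 (9.66 ± 4.1) did not differ beyond their spread, and neither did Rbp4 and Ttr (14.8 ± 4.17) in Virma WT, where Rbp4 averaged 15.9 ± 0.609.

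**Figure D1:**
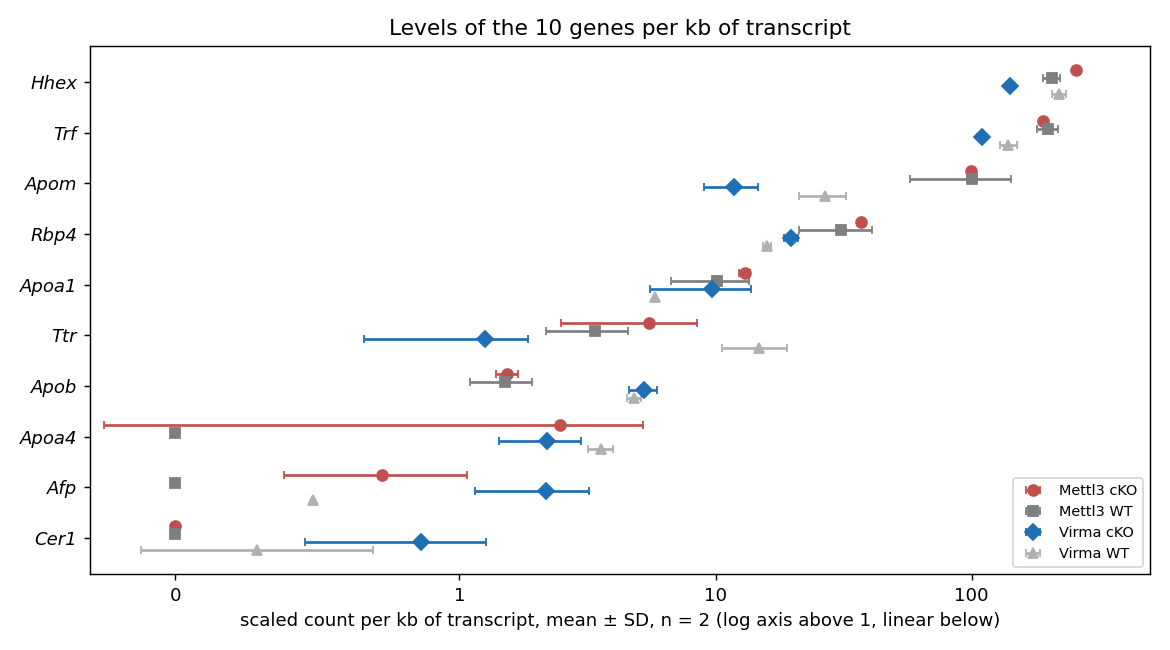
Mean scaled count per kb of transcript (horizontal axis, logarithmic above 1 and linear below) of each of the 10 genes in the 4 groups, with bars for the SD of 2 libraries. By this length, that of the longest coding transcript, Hhex and Trf lie above 100 in every group, and Cer1 lies below 1 in every group.

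Of the members, 3 (Afp, Cer1 and Apoa4) were barely detected. Afp, which encodes alpha-fetoprotein, the main serum protein of yolk sac endoderm, had 1 and 2 scaled counts in Mettl3 cKO and 0 and 0 in Mettl3 WT, and 6 and 3 in Virma cKO against 1 and 1 in Virma WT. Cer1, which encodes a secreted antagonist of Nodal, had 0 and 0 in both Mettl3 groups, 1 and 2 in Virma cKO and 0 and 1 in Virma WT. Apoa4, which encodes an apolipoprotein of intestine and yolk sac, had 1 and 8 in Mettl3 cKO and 0 and 0 in Mettl3 WT, and 3 and 5 in Virma cKO against 7 and 6 in Virma WT. These 3 genes did not reach the filter (10 scaled counts in at least 2 libraries) and carry no test in the main fit. In estimated reads, Afp had 13 in Virma cKO and 2 in Virma WT, a ratio of 6.57 (exact 95% interval 1.49 to 59.9). Apoa4 had 11 and 19, a ratio of 0.585 (0.251 to 1.29). These intervals cover counting error only, and the estimate itself is uncertain by about 1 read per library. Afp and Cer1, markers of visceral endoderm and of its anterior part, were thus at or near 0 in all 8 libraries, unlike the endocytic markers given further on. Both Mettl3 cKO libraries together held 0 Cer1 reads, which allows up to 0.0892 RPM by the limit of 3 reads, and the shallower Mettl3 WT libraries allow up to 0.233 RPM for Cer1, Afp and Apoa4 alike.

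Hhex, which encodes a homeobox repressor of early anterior visceral endoderm and foregut, was lower in Virma cKO and higher in Mettl3 cKO than in the matching controls. Its scaled counts were 261 and 250 in Virma cKO, against 378 and 415 in Virma WT. Both Virma cKO libraries lay below all 6 other libraries. The log2 fold change was -0.63 ± 0.07 (SE, adjusted p = 7.68e-12, limma over 14287 genes), or 1.55-fold lower in Virma cKO. In Mettl3 cKO Hhex had 465 and 459 scaled counts, against 390 and 350 in Mettl3 WT. The groups did not overlap, and the log2 fold change was 0.32 ± 0.10 (SE, adjusted p = 0.00778, limma). Without Mettl3 WT replicate 2 it was 0.24 with an adjusted p of 0.133 (limma). The Virma effect minus the Mettl3 effect was -0.95 ± 0.13 (SE, adjusted p = 2.41e-09, limma).

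Trf was lower in Virma cKO, with 284 and 281 scaled counts, against 339 and 378 in Virma WT. The log2 fold change was -0.34 ± 0.07 (SE, adjusted p = 3.36e-05, limma), and the libraries of the 2 groups did not overlap. Under scaling to total counts the change was smaller, at -0.19 (adjusted p = 0.0148, limma). Mettl3 cKO had 498 and 481 scaled counts, against 477 and 544 in Mettl3 WT, whose range enclosed both knockout libraries. That log2 fold change was -0.05 ± 0.09 (SE, adjusted p = 0.662, limma), with a 95% interval of -0.23 to 0.13. The difference of the effects was -0.29 ± 0.12 (SE, adjusted p = 0.039, limma). It lost its call without Mettl3 WT replicate 1 (-0.19, adjusted p = 0.297, limma), Mettl3 cKO replicate 1 (-0.26, adjusted p = 0.092), Virma WT replicate 2 (-0.21, adjusted p = 0.174), Virma cKO replicate 1 (-0.29, adjusted p = 0.0644) or Virma cKO replicate 2 (-0.28, adjusted p = 0.0796). It also lost it under median-of-ratios scaling (-0.27, adjusted p = 0.0551), under scaling to total counts (-0.18, adjusted p = 0.217), without a filter (adjusted p = 0.0756), with both Virma pairs as 1 sample each (adjusted p = 0.0801) and after removal of a length and GC trend (-0.16, adjusted p = 0.263).

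**Figure D2:**
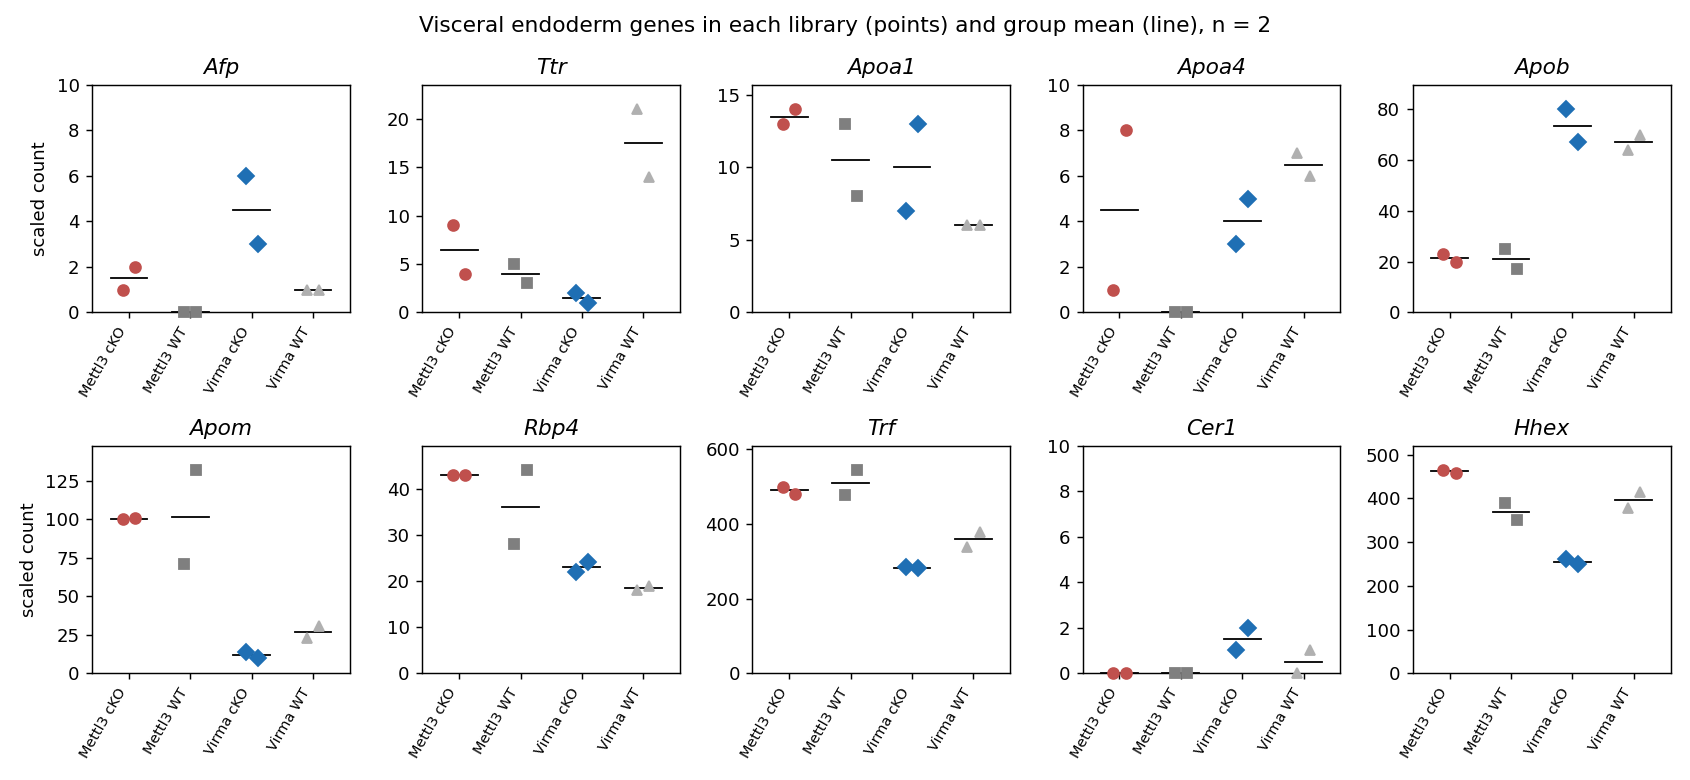
Scaled count (vertical axes, each from 0) of the 10 genes in each of the 8 libraries, as points, with a line at the group mean. The Virma cKO points of Hhex, Trf, Apom and Ttr lie below those of Virma WT.

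Apom and Ttr were the other members called in the Virma comparison. Apom encodes a lipocalin that rides on lipoprotein particles and carries sphingosine 1-phosphate. It had 14 and 10 scaled counts in Virma cKO, against 23 and 31 in Virma WT, a log2 fold change of -1.05 ± 0.32 (SE, adjusted p = 0.00265, limma). Without Virma cKO replicate 2 the change was -0.84 with an adjusted p of 0.0514 (limma). In Mettl3 cKO it had 100 and 101 scaled counts, against 71 and 132 in Mettl3 WT, so the control libraries spanned the knockout values. The log2 fold change was 0.07 ± 0.22 (SE, adjusted p = 0.815, limma). The difference of the effects was -1.12 ± 0.38 (SE, adjusted p = 0.0127, limma), and without Mettl3 WT replicate 1 it was -0.66 with an adjusted p of 0.169. Without Virma WT replicate 2 it was -0.92 (adjusted p = 0.0714, limma), and without Virma cKO replicate 2 it was -0.91 (adjusted p = 0.0905, limma). It also lost its call without a filter (adjusted p = 0.0669, limma) and after removal of a length and GC trend (-0.83, adjusted p = 0.0608, limma).

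Ttr encodes transthyretin, the carrier of thyroxine and of the retinol-binding protein RBP4. It had 2 and 1 scaled counts in Virma cKO, against 21 and 14 in Virma WT. Those counts stand for an estimated 4 reads in Virma cKO and 51 in Virma WT, a ratio of 0.0792 with an exact 95% interval of 0.0208 to 0.216, which covers counting error only and not the uncertainty of about 1 read per library in the estimate itself. The fitted log2 fold change was -2.47 ± 0.57 (SE, adjusted p = 0.000108, limma). It understates the change, since 2 was added to each value before the logarithm was taken. Ttr passed the filter on low values only through Virma WT, the group in which it was high. In Mettl3 cKO it had 9 and 4 scaled counts, against 5 and 3 in Mettl3 WT (log2 fold change 0.47 ± 0.64, SE, adjusted p = 0.569, limma), which stand for an estimated 14 reads in Mettl3 cKO and 3 in Mettl3 WT. The difference of the effects was -2.94 ± 0.86 (SE, adjusted p = 0.00337, limma).

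The 3 remaining tested members were called in neither knockout comparison. Apob encodes the structural protein of low-density lipoproteins. It had 80 and 67 scaled counts in Virma cKO and 64 and 70 in Virma WT, with a log2 fold change of 0.13 (95% interval -0.16 to 0.42, adjusted p = 0.446, limma). In Mettl3 cKO it had 23 and 20, against 25 and 17 in Mettl3 WT, with a log2 fold change of 0.05 (95% interval -0.75 to 0.85, adjusted p = 0.938, limma). Rbp4, which carries retinol in serum, had 22 and 24 scaled counts in Virma cKO and 18 and 19 in Virma WT. The log2 fold change was 0.28 (95% interval -0.25 to 0.82, adjusted p = 0.353, limma), although the 2 groups did not overlap. In Mettl3 cKO Rbp4 had 43 and 43 scaled counts, against 28 and 44 in Mettl3 WT (log2 fold change 0.29, 95% interval -0.34 to 0.91, adjusted p = 0.478, limma). Apoa1, the main protein of high-density lipoproteins, had 7 and 13 scaled counts in Virma cKO and 6 and 6 in Virma WT (log2 fold change 0.53, 95% interval -0.29 to 1.36, adjusted p = 0.255, limma). In Mettl3 cKO Apoa1 had 13 and 14, against 13 and 8 in Mettl3 WT (log2 fold change 0.33, 95% interval -0.66 to 1.32, adjusted p = 0.616, limma). The intervals leave room for changes of moderate size in either direction for each of these 3 genes in the Mettl3 comparison. There, removal of a length and GC trend moved Apoa1 to 0.03, Rbp4 to 0.02 and Apob to 0.37, and none of them was called. Mettl3 cKO and Mettl3 WT also differed in depth, which cannot be told apart from the knockout in this comparison.

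Counted over the 7 tested members, 4 were called lower and 0 higher in Virma cKO, while 70.1% of the 14287 genes tested were called in either direction, 34.8% higher and 35.3% lower. In Mettl3 cKO 1 was called higher and 0 lower, against 50.3% of all genes called in either direction, 23.7% higher and 26.7% lower. At an unadjusted p under 0.05, Hhex was still the only tested member in the Mettl3 comparison. The difference of the effects was called for 4 of the 7, all negative, against 46.5% of genes in either direction, 21.1% higher and 25.4% lower. Ttr is among the 4 in both counts and passed the filter only through Virma WT. Of all genes called in the Virma comparison 49.7% were higher, and 64.9% after scaling to total counts, which moved the median log2 fold change of all genes to 0.147. For the difference of the effects the share higher was 45.4%, and 59.9% after that scaling. Summed over the 8 secreted-protein genes, scaled counts were 418 and 404 in Virma cKO against 479 and 525 in Virma WT, and 688 and 673 in Mettl3 cKO against 619 and 748 in Mettl3 WT. Without Trf the sums were 134 and 123 in Virma cKO against 140 and 147 in Virma WT, and 190 and 192 in Mettl3 cKO against 142 and 204 in Mettl3 WT. In bulk RNA, fewer cells of a type and less RNA per cell cannot be told apart.

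**Figure D3:**
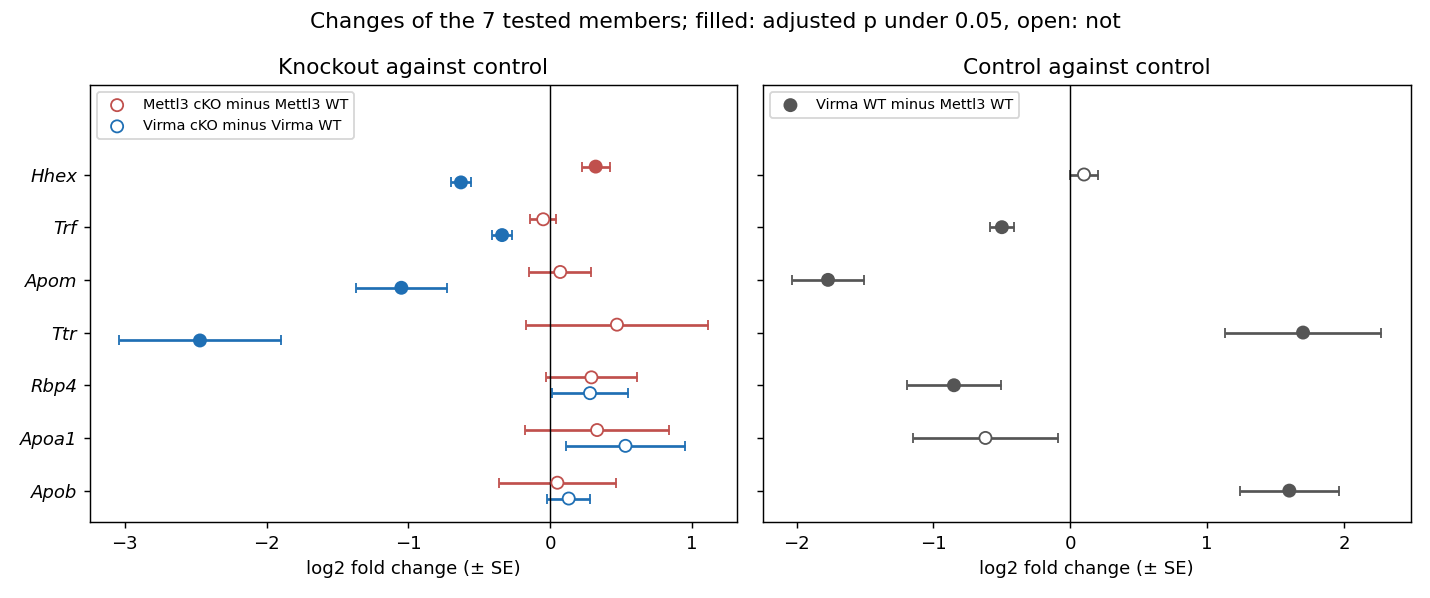
Log2 fold change with its SE (horizontal axes) of the 7 tested members in both knockout comparisons (left) and between the control groups (right); filled points have an adjusted p under 0.05 in limma. In the Virma comparison 4 members lie below 0 and are filled, and between the controls 5 of 7 are filled.

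The control groups of the 2 lines also differed in members, and each knockout is measured against one of them. Of the 7 tested members, 2 (Apob and Ttr) were called higher and 3 lower in Virma WT than in Mettl3 WT, against 44.6% of all genes called in either direction, 24% higher and 20.6% lower. Ttr was tested only because Virma WT carried it over the filter, which favours its call here. Apom had 23 and 31 scaled counts in Virma WT, against 71 and 132 in Mettl3 WT (log2 fold change -1.77 ± 0.26, SE, adjusted p = 2.93e-08, limma). Apob had 64 and 70 scaled counts in Virma WT, against 25 and 17 in Mettl3 WT (log2 fold change 1.60 ± 0.36, SE, adjusted p = 0.000145, limma). Apob was thus about as high in both Virma groups and low in both Mettl3 groups, as the plot of values by library shows. Trf was lower in Virma WT, with a log2 fold change of -0.50 (adjusted p = 4.59e-06, limma), and so was Rbp4, with -0.85 (adjusted p = 0.0366, limma). Ttr was higher, with 1.70 (adjusted p = 0.0119, limma), while Hhex (0.10, adjusted p = 0.463) and Apoa1 (-0.62, adjusted p = 0.358) were not called. Without Mettl3 WT replicate 2 the Ttr change was 1.46 (adjusted p = 0.111, limma) and the Rbp4 change -0.55 (adjusted p = 0.358, limma), and without Virma WT replicate 1 they were 1.44 (adjusted p = 0.0646, limma) and -0.81 (adjusted p = 0.0931, limma). Without Virma WT replicate 2 the Rbp4 change was -0.88 (adjusted p = 0.0668, limma). Marker lists given further on also differed between the controls. Of 15 fibroblast markers, 14 were called higher and 1 lower in Virma WT than in Mettl3 WT (median 1.52). Of 10 endocytic and surface markers, 8 were higher and 1 lower (median 0.71), and of 11 parietal endoderm markers 1 was higher and 8 lower (median -0.38). The median of all genes was 0.04. Line, depth, cell content and any difference in library preparation cannot be told apart in this comparison.

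The partners of the secreted proteins ranged widely in level. Of 14 tested genes for lipoprotein assembly and other apolipoproteins, 3 were called higher and 9 lower in Virma cKO (median log2 fold change -0.20), and 0 higher and 3 lower in Mettl3 cKO (median -0.05), where the median of all genes was 0.0 in both. Apoe, the apolipoprotein with the most RNA, had 11661 and 11947 scaled counts in Virma cKO, against 13435 and 14350 in Virma WT (log2 fold change -0.23, adjusted p = 3.17e-09, limma; -0.09 and 0.0109 under scaling to total counts). Surf4, a cargo receptor that exports lipoproteins from the endoplasmic reticulum, changed by -0.25 (adjusted p = 7.17e-12, limma; -0.10 and 0.000932 under scaling to total counts) in Virma cKO. Pltp, which transfers phospholipids between lipoproteins, had a log2 fold change of -0.12 (adjusted p = 0.0181, limma) there, which turned to 0.03 (adjusted p = 0.544) under scaling to total counts, and Apoc1 had 0.08 (adjusted p = 0.276, limma). Under that scaling 4 genes of the list were called higher and 6 lower in Virma cKO, and 2 higher and 2 lower in Mettl3 cKO. Mttp, the transfer protein that loads lipid onto nascent apolipoprotein B, is named for that role after its values were seen. It had 138 and 145 scaled counts in Virma cKO, against 508 and 488 in Virma WT (log2 fold change -1.80, adjusted p = 3.19e-29, limma), and 202 and 169 in Mettl3 cKO, against 367 and 328 in Mettl3 WT (-0.90, adjusted p = 3.81e-09, limma). Mttp thus fell in both comparisons in which Apob itself was not called.

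The retinol and iron list held 9 tested genes, of which 5 were called higher and 3 lower in Virma cKO (median 0.20), and 4 higher and 2 lower in Mettl3 cKO (median -0.05). Ftl1, the ferritin light chain, had 44738 and 44086 scaled counts in Virma cKO, against 38061 and 39068 in Virma WT (log2 fold change 0.20, adjusted p = 4.72e-25, limma), and 64399 and 64775 in Mettl3 cKO, against 39430 and 40145 in Mettl3 WT (0.70, adjusted p = 9.7e-46, limma). Fth1, the ferritin heavy chain, rose by 0.52 in Virma cKO (adjusted p = 8.12e-37, limma) and by 0.70 in Mettl3 cKO (adjusted p = 1.36e-34, limma). Tfrc, the receptor that takes up the transferrin made from Trf, changed by -0.17 in Virma cKO (adjusted p = 1.46e-05, limma; -0.02 and 0.598 under scaling to total counts) and by -0.83 in Mettl3 cKO (adjusted p = 4.35e-22, limma). Both ferritin chains were thus higher in each knockout group than in its control, and the receptor was lower, in Virma cKO not under every scaling.

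Other serum proteins of yolk sac and liver were few. Of 17 listed genes 8 were tested and 2 were at 0 in all libraries, with 2 called higher and 3 lower in Virma cKO (median -0.15) and 1 higher and 0 lower in Mettl3 cKO (median -0.04). Amn, in this list although it encodes the membrane anchor of the receptor cubilin and not a secreted serum protein, had the highest mean and was one of the 3 called lower, at 69 and 67 scaled counts in Virma cKO, against 614 and 713 in Virma WT (log2 fold change -3.24, adjusted p = 6.04e-27, limma). In Mettl3 cKO it had 475 and 566, against 624 and 579 in Mettl3 WT (-0.22, adjusted p = 0.0547, limma). Fgb, a chain of fibrinogen, had 22 and 24 scaled counts in Virma cKO, against 53 and 51 in Virma WT (-1.11, adjusted p = 1.13e-05, limma), and 60 and 59 in Mettl3 cKO, against 8 and 22 in Mettl3 WT (2.01, adjusted p = 4.2e-05, limma). F2, prothrombin, and Serpinf2, an inhibitor of plasmin, were called in neither comparison.

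The genomic neighbours of members add to this. Afp lies between Alb and Afm on chromosome 5, in the albumin gene family. Alb, serum albumin, had 1 and 0 scaled counts in Virma cKO, 0 and 1 in Virma WT, and 0 in the 4 Mettl3 libraries. Afm, which encodes afamin, a carrier of vitamin E, had 29 and 22 scaled counts in Virma cKO, against 13 and 11 in Virma WT (log2 fold change 0.97, adjusted p = 0.00445, limma), and 12 and 11 in Mettl3 cKO, against 3 and 14 in Mettl3 WT (0.62, adjusted p = 0.389, limma). On chromosome 9 Apoa1, Apoc3, Apoa4 and Apoa5 form a cluster. Apoc3 was at 0 in all 8 libraries, and Apoa5 had 0 to 5 scaled counts.

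Among 11 tested organizer genes of the anterior visceral endoderm, 1 was called higher and 9 lower in Virma cKO (median -0.62), and 5 higher and 4 lower in Mettl3 cKO (median 0.15). Lefty1, a Nodal inhibitor like Cer1, had 2218 and 2178 scaled counts in Virma cKO, against 4680 and 4960 in Virma WT (log2 fold change -1.13, adjusted p = 2.92e-42, limma), and 2289 and 2442 in Mettl3 cKO, against 2169 and 2089 in Mettl3 WT (0.15, adjusted p = 0.00918, limma). Nodal, the ligand, rose in both, by 0.66 in Virma cKO (adjusted p = 2.55e-23, limma) and by 0.42 in Mettl3 cKO (adjusted p = 1.32e-07, limma). Lefty2, the paralog of Lefty1, changed by -0.11 in Virma cKO (adjusted p = 0.00436, limma; 0.03 and 0.395 under scaling to total counts) and by 0.37 in Mettl3 cKO (adjusted p = 7.64e-06, limma). Sfrp1, a secreted Wnt antagonist, changed by -0.62 in Virma cKO (adjusted p = 9.22e-17, limma) and by -0.60 in Mettl3 cKO (adjusted p = 9.75e-15, limma). Dkk1, another Wnt antagonist of the anterior visceral endoderm, is named for its role after its values were seen, at 49 and 50 scaled counts in Virma cKO against 698 and 686 in Virma WT (-3.75, adjusted p = 1.13e-36, limma). In Mettl3 cKO it had 409 and 372, against 492 and 444 in Mettl3 WT (-0.26, adjusted p = 0.0204, limma). Other genes of the list had little RNA, as Cer1 did, and are also named after their values were seen. Otx2, not tested, had 3 to 10 scaled counts over the libraries, Gsc 7 to 17 and Lhx1 6 to 40. Gsc was called in neither comparison, and Lhx1 was called lower in Virma cKO only (-1.57, adjusted p = 4.52e-06, limma). Which cells made the RNA of the listed genes was not measured.

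Transcription factors that act upstream of visceral endoderm genes included large falls in Virma cKO. Of 13 tested, 2 were called higher and 7 lower in Virma cKO (median -1.36), and 0 higher and 5 lower in Mettl3 cKO (median -0.14). Under scaling to total counts 5 were called higher in Virma cKO and 7 lower. Gata4 had 565 and 569 scaled counts in Virma cKO, against 3571 and 3628 in Virma WT (log2 fold change -2.66, adjusted p = 1.74e-56, limma), and 3255 and 3221 in Mettl3 cKO, against 4035 and 3921 in Mettl3 WT (-0.30, adjusted p = 3.22e-10, limma). Gata6 changed by -3.09 in Virma cKO (adjusted p = 1.95e-48, limma) and by -0.72 in Mettl3 cKO (adjusted p = 5.59e-21, limma). Sox7 changed by -3.42 in Virma cKO (adjusted p = 9.02e-48, limma) and by -0.55 in Mettl3 cKO (adjusted p = 1.82e-13, limma). Beside these changes, the largest fitted change of a member in Virma cKO was that of Ttr, at -2.47, and Hhex, Trf and Apom lay between -0.34 and -1.05. The Ttr value is understated by the 2 added to its low counts. Under voom on estimated reads it was -3.45, so Ttr cannot be ranked below these factors.

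Endocytic and surface markers of visceral endoderm were called lower for 9 of 10 tested genes in Virma cKO and higher for 1 (median -2.10), and for 2 lower and 2 higher in Mettl3 cKO (median 0.09). Cubn, the endocytic receptor for vitamin B12 complexes and apolipoprotein A-I, had 1227 and 1222 scaled counts in Virma cKO, against 18952 and 18569 in Virma WT (log2 fold change -3.94, adjusted p = 6.1e-76, limma). In Mettl3 cKO it had 8706 and 8458, against 14212 and 13907 in Mettl3 WT (-0.71, adjusted p = 8.41e-35, limma). Lrp2, which works with it, changed by -2.34 in Virma cKO (adjusted p = 1.93e-62, limma) and by 0.02 in Mettl3 cKO (adjusted p = 0.637, limma). Dab2, the adaptor of both, changed by -3.40 in Virma cKO (adjusted p = 4.54e-61, limma) and by -0.55 in Mettl3 cKO (adjusted p = 7.98e-19, limma). Cdh1, the epithelial cadherin, was the gene called higher in Virma cKO, by 0.48 (adjusted p = 1.78e-33, limma). The endocytic apparatus was therefore well measured in Virma WT, where Afp and Cer1 had 1 scaled count or fewer in each library.

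**Figure D4:**
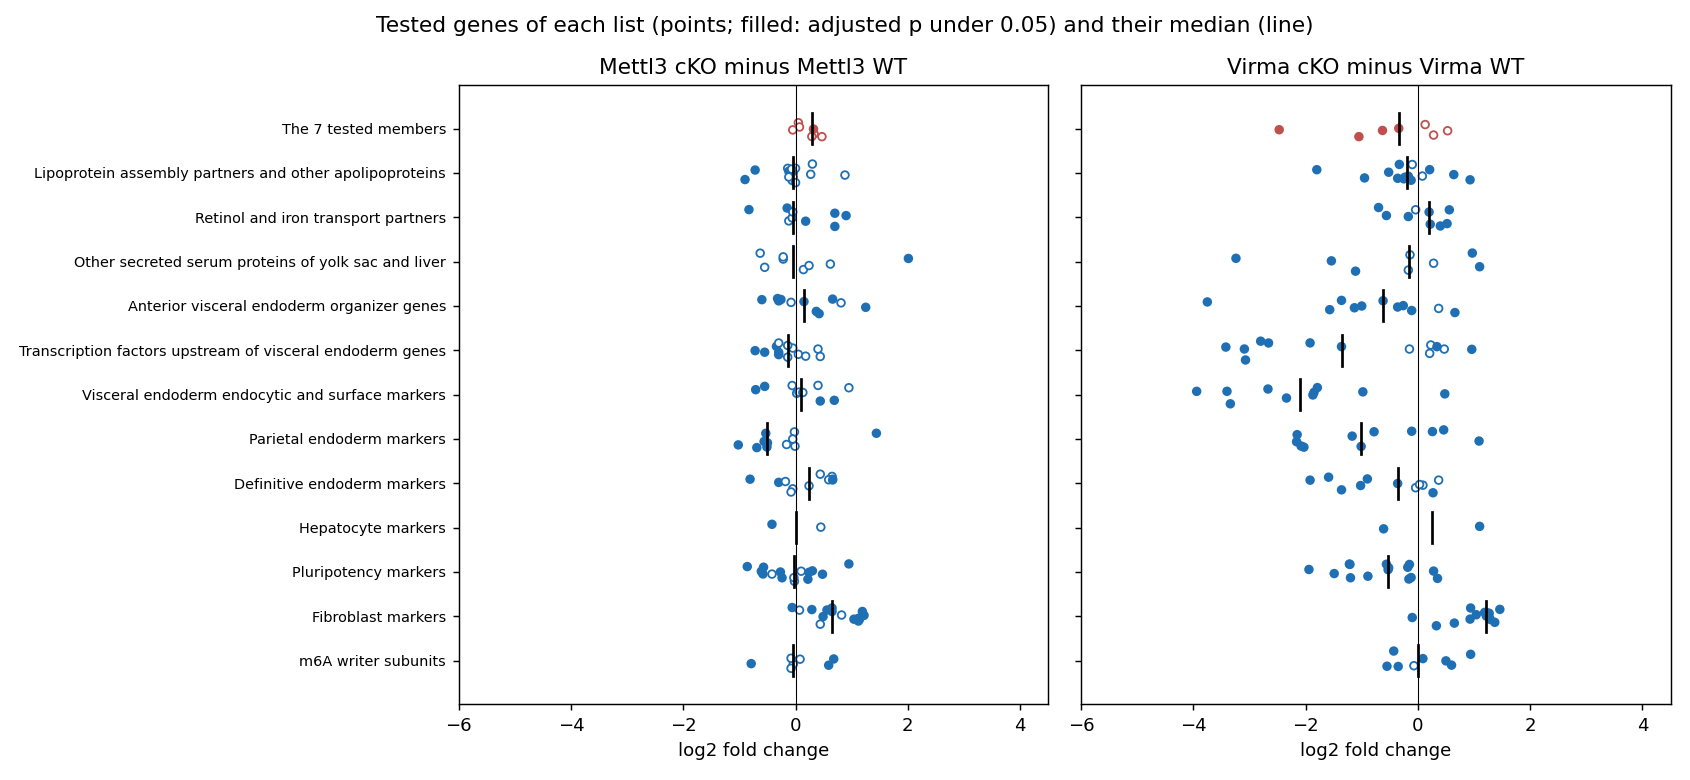
Log2 fold change (horizontal axes) of every tested gene of each list and of the 7 tested members, with a line at the median, for Mettl3 cKO minus Mettl3 WT (left) and Virma cKO minus Virma WT (right). In the Virma comparison the medians of the upstream factors (-1.36) and of the endocytic markers (-2.10) lie left of most member points, and the fibroblast median (1.22) lies right of 0.

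Markers of other cell types moved in the same comparisons, and their part in the changes of the members was not tested. Of 11 parietal endoderm markers, 3 were called higher and 8 lower in Virma cKO (median -1.01), and 1 higher and 6 lower in Mettl3 cKO (median -0.50). Their summed level was 46484 to 46687 scaled counts in Virma cKO and 123735 to 126325 in Virma WT, and 121204 to 121694 in Mettl3 cKO and 172929 to 173780 in Mettl3 WT. Of 15 fibroblast markers, 14 were called higher and 1 lower in Virma cKO (median 1.22), and 11 higher and 1 lower in Mettl3 cKO (median 0.65). Their summed level was 35796 to 36338 in Virma cKO and 24998 to 25173 in Virma WT, and 21168 to 21300 in Mettl3 cKO and 18780 to 18794 in Mettl3 WT. A large part of each sum was Fn1, the marker called lower in both comparisons. Fn1 had 14803 and 14520 scaled counts in Virma cKO, 15631 and 15860 in Virma WT, 14041 and 14273 in Mettl3 cKO, and 14934 and 14666 in Mettl3 WT. The sums therefore understate the rise of the other markers. Col1a1 had 6975 and 6695 scaled counts in Virma cKO, against 2848 and 2823 in Virma WT, and 2190 and 2105 in Mettl3 cKO, against 953 and 1032 in Mettl3 WT. Every library held Col1a1 reads, and how much of each member's RNA came from such cells was not measured.

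Of 15 pluripotency markers, 2 were called higher and 13 lower in Virma cKO (median -0.53; 2 and 9 under scaling to total counts), and 5 higher and 6 lower in Mettl3 cKO (median -0.03), with summed levels of 27783 to 28071 in Virma cKO, 44879 to 45624 in Virma WT, 40419 to 41008 in Mettl3 cKO and 43886 to 43930 in Mettl3 WT. Of 11 definitive endoderm markers, a lineage that also expresses Hhex and Cer1, 1 was called higher and 6 lower in Virma cKO (median -0.36), and 2 higher and 2 lower in Mettl3 cKO (median 0.24). Their summed level was 3464 to 3506 in Virma cKO and 4653 to 4727 in Virma WT, and 3940 to 3957 in Mettl3 cKO and 3536 to 3840 in Mettl3 WT. Sox17, Foxa2, Eomes and Gsc of this list also belong to the lists of upstream factors or organizer genes above. Sox17 (-1.92), Foxa2 (-1.36) and Eomes (-0.36) were among those called lower in Virma cKO, so these lists are not independent. Hepatocytes express most of the secreted members, but only 2 of 11 hepatocyte markers were tested and 3 were at 0 in all libraries. Nearly all of that list's sum was Ass1, an enzyme that many cells express, and Alb did not exceed 1 scaled count in any library. The 8 m6A writer subunits gave 4 called higher and 3 lower in Virma cKO (median 0.01), and 2 higher and 1 lower in Mettl3 cKO (median -0.04).

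The genes whose pattern over the 8 libraries was most like that of a member were found by the root mean square difference of centred log2 values. For Hhex they were Sigirr (0.048), Lpcat4 (0.072) and Ebp (0.074), and for Trf they were Polm (0.056), Tmc8 (0.058) and Rnf181 (0.059), among 10879 genes compared. For Apob they were Enpp3 (0.114), Zeb2 (0.19) and Nnt (0.208), and for Apom Etv2 (0.368), Gstp2 (0.374) and Rhox5 (0.401), among 10880. The closest gene to Apom thus lay farther from it than the third gene did from any of the 3 other members. None of the 12 genes is a member or belongs to a list above. The letters GGACT, a core of the known m6A consensus, occurred 0.48 to 1.17 times per kb of transcript in the 10 members, against a median of 1.06 and quartiles of 0.65 and 1.53 over 14156 coding genes tested. Which of these letters carry the mark was not measured.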

How the data were processed

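RNA-seq of 8 libraries was deposited as 1 table of gene values per symbol. The submitters' processing notes name the aligner STAR 2.7.11b, the build mm39, Subread, DESeq2, FastQC 0.12.1 and Trim Galore, without order or settings. The library kits, per the labels' protocols, were a SMARTer stranded total RNA kit and a VAHTS universal kit, with no word on which library used which or on the strand setting of the counting.

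The deposited values are whole numbers and are treated as a score, not as raw counts, because the 75th percentile is 601.25 to 602 in all 8 libraries. In the 3 libraries where 1 read is worth more than 1 unit, 100% of values are whole multiples of a fixed step after rounding to the nearest whole number, and 61 and 64 of the whole numbers from 1 to 100 are absent in the Mettl3 WT libraries. Dividing by the step gave estimated reads, which elsewhere are good to about 1 read. A count test had been planned and was replaced: limma 3.58.1 (R 4.3.3) was run on log2 of the value plus 2, with precision weights from the estimated reads, over 14287 genes with at least 10 scaled counts in 2 or more libraries, in 1 fit of 4 groups, with Benjamini-Hochberg adjustment over all of them. The steps were tested on simulated data. Fold changes are on this log2 scale and understate the change of low genes.

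Estimated reads of the libraries of a pair differed by more than sampling noise (chi-square per degree of freedom 1.632 in Mettl3 cKO, 1.076 in Mettl3 WT, 1.335 in Virma cKO and 1.907 in Virma WT), so all 8 entered separately. Intervals on reads are exact Poisson or binomial at 95% and cover counting error only. Lengths and GGACT counts come from GENCODE M21 transcripts, matched by symbol (21144 directly, 391 through older names, 277 not), and promoters from RefSeq, GRCm38.p6. All 10 members are named, with up to 4 genes of highest mean level per list (2 of these are not reported here) and the 3 genes of nearest pattern for each of 4 members. The members and lists were chosen with earlier results of these data known. Alternatives covered scaling, filter, pseudocount, threshold, samples, length and GC trend, replicate block and control group.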

Additional observations from a re-analysis of the deposited data

Results flagged for a closer look

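Of all 14287 genes tested, 46.5% were called for the difference of the effects, 21.1% higher and 25.4% lower. Beside that share, the effect of the knockout differed between the 2 lines for 4 members, by the test of the difference itself (Virma effect minus Mettl3 effect, limma, adjusted over 14287 genes). For Hhex it was -0.95 (adjusted p = 2.41e-09), with both Virma cKO libraries below both Virma WT libraries and both Mettl3 cKO libraries above both Mettl3 WT libraries. For Ttr it was -2.94 (adjusted p = 0.00337), with both Virma cKO libraries below both Virma WT libraries and overlapping Mettl3 groups; Ttr was tested only because Virma WT, where it is high, carried it over the filter. For Apom it was -1.12 (adjusted p = 0.0127) and for Trf -0.29 (adjusted p = 0.039), again with separate Virma groups and overlapping Mettl3 groups. The calls of Apom and Trf were lost under other settings, Apom for example without a filter (adjusted p = 0.0669) and Trf under scaling to total counts (-0.18, adjusted p = 0.217). The lines also differ in their controls and their depth, and the part of either in these differences was not tested.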

How the results depend on the processing

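Over the members' fold changes under all alternatives, 562 kept direction and side of the threshold, 32 lost the call, 3 gained it with the same sign and 11 changed sign, 3 of these gaining a call. This tally holds the difference of the effects only for the 4 members called in it. Hhex and Trf were called lower in Virma cKO, and Apob, Apom and Trf were called between the controls, under every alternative that gave them a value; the adjusted p reached 1.85e-05 for Hhex and 0.0148 for Trf. Ttr had no value with both Virma pairs as 1 sample each or at a CPM of at least 1. With Virma WT as the control of Mettl3 cKO, 9435 of 14287 genes were called, against 7191 in the main fit. Members called numbered 7 under that swap (5 higher, 2 lower). Ttr, which only Virma WT carried over the filter, was then -1.23, Apob -1.55 and Trf 0.45, all opposite in sign to the main fit. The count of members called in the Mettl3 comparison thus depends on which control is used, as does the count of all genes. Leaving out 1 library gave 0 to 1 there (0 without Mettl3 WT replicate 2), 3 to 4 in the Virma comparison, 2 to 4 for the difference and 3 to 5 between the controls. The difference counted 2 members instead of 4 with both Virma pairs as 1 sample each, without a filter, at an adjusted p of 0.01 and with the length and GC trend removed, with or without the block; between the controls 3 members instead of 5 were called with both Virma pairs as 1 sample each and at 0.01. The Trf difference ranged from -0.38 to -0.16 over 23 alternatives, with an adjusted p of 0.0107 to 0.297, and the Apom difference from -1.54 to -0.66, with 0.00209 to 0.169. Uncalled Mettl3 values changed sign for Apob under voom (-0.02) and for Apom with the length and GC trend removed (-0.19; -0.21 with the block); on leaving out 1 library the ranges were -0.20 to 0.31 for Apob, -0.39 to 0.49 for Apom, -0.03 to 0.58 for Rbp4 and -0.15 to 0.04 for Trf. The cause of these shifts was not tested. Without a filter, Afp in Virma cKO had a log2 fold change of 1.08 (adjusted p = 0.0495, limma) and Apoa4 between the controls 2.09 (adjusted p = 0.0302, limma).

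The replicate numbers did not pair the libraries: deviations of same-numbered libraries correlated from -0.037 to 0.072 over 11510 genes. With the replicate block the counts of members called stayed at 1 (Mettl3), 4 (Virma), 4 (difference) and 5 (controls), and all genes called were 7575, 10011, 6972 and 6726. The Virma cKO pair as 1 sample, TMM factors, pseudocounts of 1 and 5, voom and the fit without precision weights were chosen after seeing the data. The planned edgeR quasi-likelihood test was not run, since the values are not counts, and all 8 libraries as separate samples is the fit reported. Depth limits Afp, Apoa4, Cer1 and Ttr most, above all in Mettl3 WT, where 3 reads stand for 7.65 and 8.28 scaled counts.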
